A study of Sus scrofa with 150 samples.

Results

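Transcripts of the lipid export machinery of the liver were examined, 10 genes in all: the apolipoproteins APOA1, APOA2, APOA4, APOB, APOC3, APOE, APOH and APOM, the microsomal triglyceride transfer protein MTTP and the liver fatty acid binding protein FABP1. They were chosen by the symbol in the array's annotation. All 10 genes were found, on 11 of the 23999 probe sets tested, with 1 probe set each except APOE, which had 2. Where a gene is described by a single level, the brightest probe set stands for it.

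The livers came from 150 pigs of a commercial cross, Pix(DLxDE), taken at slaughter at a mean end weight of 110 kg, and each was hybridised to 1 Affymetrix Porcine Genome Array. The pigs formed 1 group, untreated and without controls, and the labels used here give no sex, age, family or slaughter day. Each pig had 2 meat quality traits: the fat area on M. longissimus dorsi, the long back muscle (15.2 ± 3.25 cm2, SD, n = 150), and the drip loss of that muscle, the weight it loses while hanging (5.54 ± 2.12%, SD, n = 150). The comparison implied by the design is whether a transcript's level in the liver went with either trait.

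The liver packs triglyceride and cholesteryl ester into very low density lipoprotein. MTTP, in the endoplasmic reticulum, loads lipid onto APOB, the large structural protein on which each such particle is built, and the particle leaves the cell in COPII-coated vesicles. The smaller apolipoproteins are exchangeable: APOA1 and APOA2 are the main proteins of high density lipoprotein, APOC3 slows the removal of triglyceride-rich particles, APOE is a ligand for their uptake, and APOA4 is made mostly in the intestine of humans but also in the liver of several species. APOM carries sphingosine 1-phosphate on high density lipoprotein, APOH (beta-2-glycoprotein I) binds negatively charged phospholipid, and FABP1 carries fatty acids in the cytosol of hepatocytes.

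The values are log2 signals with 2 decimals. The lowest value on every array was 4.09, a floor at which 2.75% of all values lay, and none of the 11 probe sets touched it in any pig. Array medians ran from 5.79 to 6.09, and 13 of the 150 arrays correlated with the others clearly less than the rest did. The defining markers of liver were bright: 7 of 8 hepatocyte genes were measured, with medians from 13.35 (CYP2E1) to 13.93 (ALB). The intestinal genes FABP2 and CDH17 had medians of 4.57 and 4.83, near the floor, while VIL1 was at 8.57. Adipocyte and exocrine pancreas markers had medians of at most 6.12 (LEP). In bulk liver, fewer cells of a type and less RNA per cell cannot be told apart. The levels of different probe sets are not set against each other, since probes differ in brightness, and the number of arrays limits the precision.

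**Figure D1:**
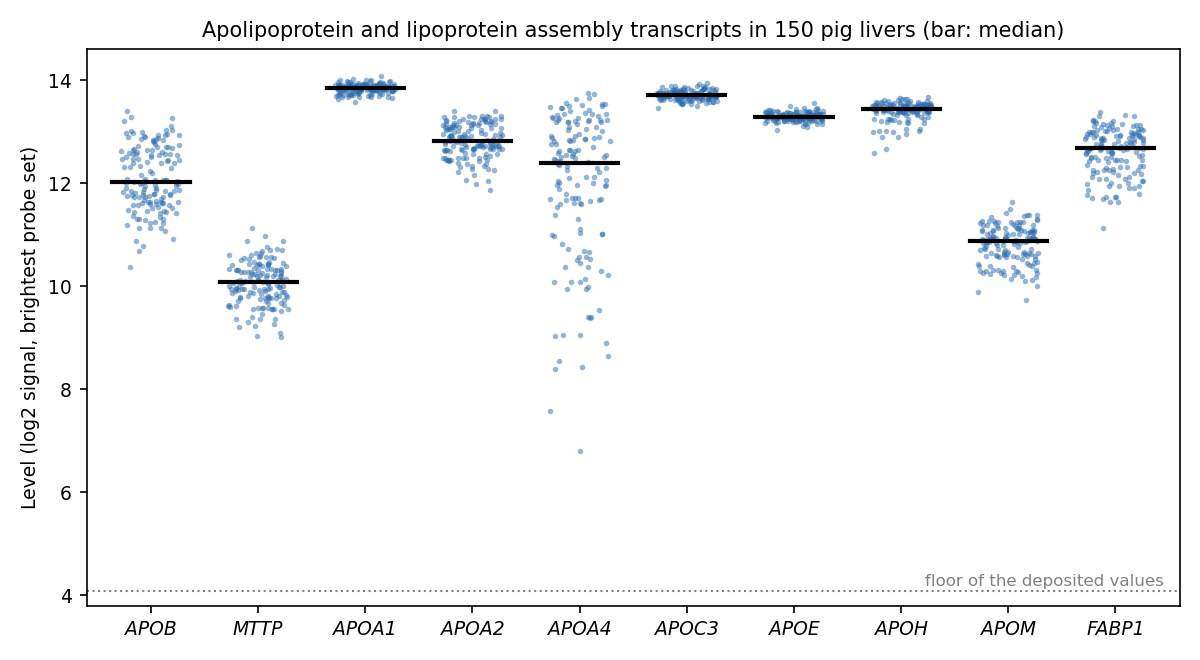
Level of each of the 10 transcripts in every liver (log2 signal, brightest probe set, 1 point per pig, black bar at the median of 150 livers, dotted line at the floor of 4.09). APOA4 ran from 6.80 to 13.76, whereas APOA1, APOC3 and APOE each stayed within 0.51 log2 units.

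The core of particle assembly varied between pigs. APOB (probe set Ssc.24987.2.S1_a_at) had a lowest level of 10.38, a median of 12.02 and a highest level of 13.40, an 8.11-fold range with an SD of 0.62 on the log2 scale. Its SD exceeded that of 97.1% of all probe sets. MTTP (Ssc.17221.1.S1_at) ran from 9.02 over a median of 10.075 to 11.13, a 4.32-fold range with an SD of 0.41. The upper quartile of APOB was 1.97 times the lower quartile, and that of MTTP 1.47 times.

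Among the exchangeable apolipoproteins the spread differed widely. APOA4 (Ssc.14503.1.S1_at) had a lowest level of 6.80, a median of 12.395 and a highest level of 13.76. Its SD of 1.45 ranked 27 among the 23999 probe sets, and the highest pig had 124.5 times the signal of the lowest. The distribution had a long lower tail: 42 pigs lay more than 1 log2 unit below the median and 25 more than 2 units below, against 15 pigs more than 1 unit above. The quartiles, at 11.02 and 13.08, differed 4.17-fold.

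APOA2 (Ssc.3703.1.S1_at) ran from 11.87 over 12.81 to 13.40 with an SD of 0.32. APOA1 (Ssc.807.1.S1_at) had a lowest level of 13.57, a median of 13.85 and a highest level of 14.08, with an SD of 0.087. APOC3 (Ssc.1039.1.S1_at) ran from 13.46 over 13.71 to 13.95 with an SD of 0.089. The brighter APOE probe set (Ssc.1342.1.S1_at) ran from 13.04 over 13.29 to 13.55 with an SD of 0.080. APOA1, APOC3 and APOE thus each covered only about a 1.4-fold range over the 150 livers, 1.42-fold for APOA1 and APOE and 1.40-fold for APOC3. Their SDs were below those of at least 99% of all probe sets, with 0.396% of probe sets lower than APOA1, 0.454% lower than APOC3 and 0.263% lower than APOE.

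The narrow spread of these 3 genes is read against the scale. The median SD of all probe sets was 0.32 at levels of 9 to 10, 0.22 at levels of 12 to 13, and 0.090 among the 30 probe sets with the highest medians. APOA1 and APOC3, which belong to those 30, therefore had SDs close to the usual value there. APOE lay a step lower on the scale, among 64 probe sets whose median SD was 0.17 and whose 5th percentile was 0.085, and its own SD was below that percentile. Whether a true difference between pigs was compressed at the top of the scale was not tested. The dimmer APOE probe set (Ssc.1342.1.A1_at) ran from 6.48 over 7.28 to 8.17 with an SD of 0.32, close to the median of probe sets at that level, and the 2 APOE probe sets did not go together over the pigs (r = 0.097, permutation p = 0.238; rho = 0.097, permutation p = 0.234; r without 2 extreme pigs 0.112; n = 150).

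**Figure D2:**
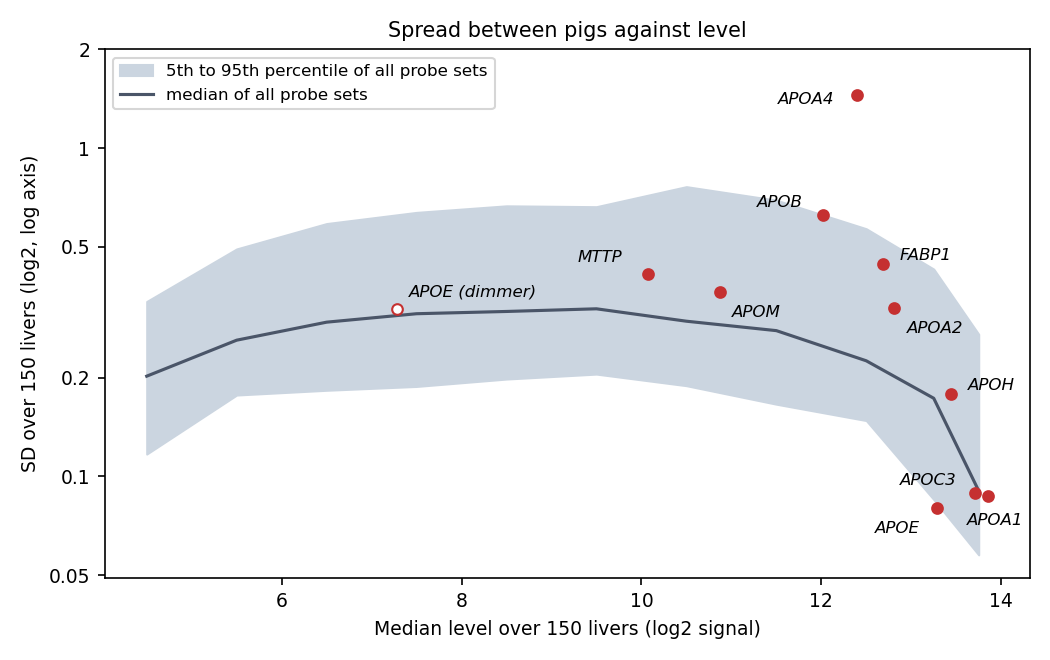
SD over 150 livers (log2, log axis) against the median level (log2 signal) of the 11 probe sets (red, open for the dimmer APOE probe set), over the median and the 5th to 95th percentile of all probe sets in bins of level. APOA4 stands above the band for its level, while APOA1 and APOC3 follow the drop in SD at the top of the scale.

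Of the remaining genes, APOH (Ssc.10442.2.S1_a_at) ran from 12.59 over 13.44 to 13.67 with an SD of 0.18, and its low values formed a tail, since its quartiles differed only 1.09-fold. APOM (Ssc.6084.1.S1_at) ran from 9.74 over 10.87 to 11.64 with an SD of 0.36, a 3.73-fold range. FABP1 (Ssc.604.1.S1_at) ran from 11.13 over 12.685 to 13.39 with an SD of 0.44, a 4.79-fold range, and 3 pigs lay more than 1 unit below its median and 0 more than 1 unit above.

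These transcripts did not vary together as a group. Over the 45 pairs of genes the median Pearson r across pigs was 0.0068, and the median r of the individual members with all other probe sets lay between -0.038 (APOC3) and 0.026 (FABP1). After Benjamini-Hochberg adjustment over the 45 pairs, 9 pairs correlated positively, 8 negatively and 28 did not pass. The weakest pair that passed was APOB with FABP1 (r = 0.198). Of all other probe sets, the share with a positive r at or beyond 0.191 ran from 5.02% (APOE) to 33.3% (APOB). The share with a negative r ran from 4.94% (APOA4) to 27.9% (APOM), so nothing particular to the set is read from these counts. Of the 17 that passed by r, 13 passed by Spearman's rho as well. Quantile normalization of the arrays gave 6 positive and 10 negative pairs. Only 5 pairs exceeded 0.5 in absolute r.

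**Figure D3:**
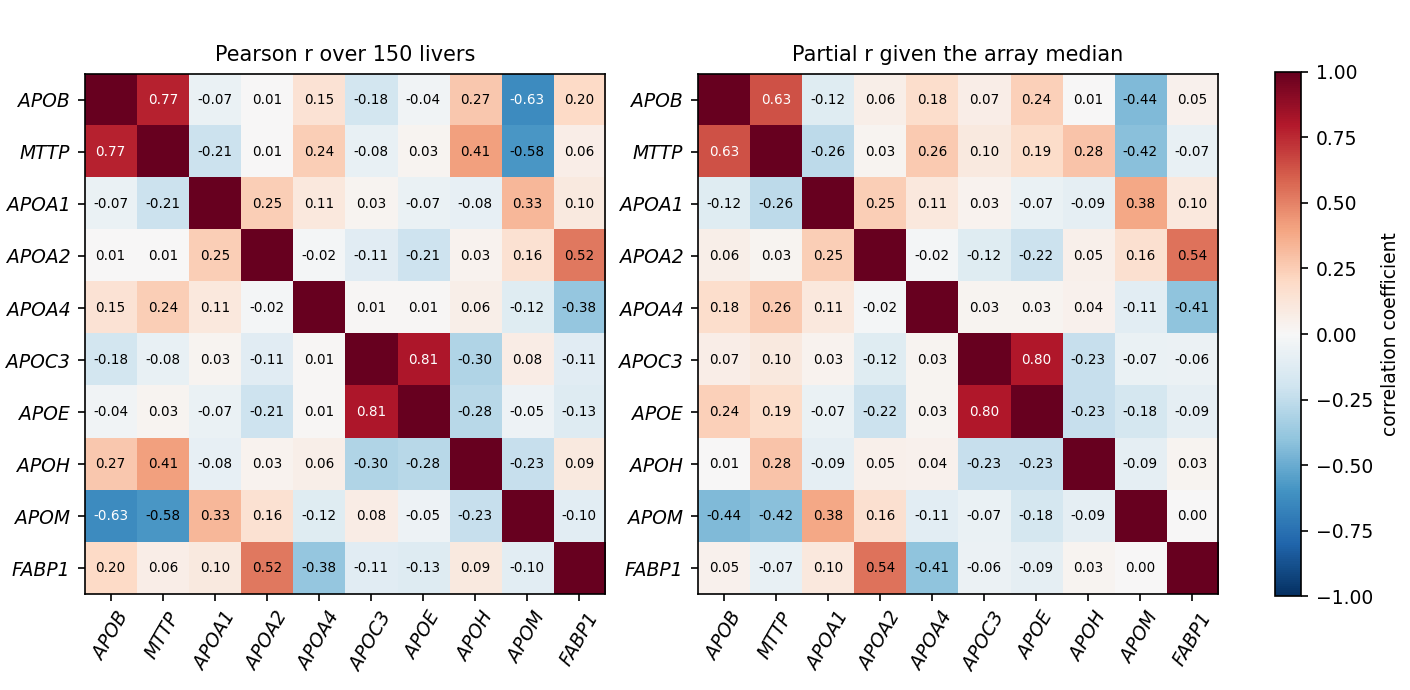
Correlation of each pair of the 10 transcripts over 150 livers, as Pearson r (left) and as partial r given the array median (right), from blue at -1 to red at 1. APOC3 with APOE (r = 0.81) and APOB with MTTP (r = 0.77) are the strongest positive pairs, and APOM runs against both APOB and MTTP.

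The assembly genes rose and fell together. APOB and MTTP correlated at r = 0.77 (rho = 0.77; permutation p = 1e-05 for each, the smallest that 100000 permutations can give; adjusted p = 6.43e-05 for r and 7.5e-05 for rho), with r = 0.76 after leaving out the 2 pigs with the most extreme APOB. The correlation was positive in 9 of 10 blocks of consecutive title numbers, with the lowest block at -0.64. By r with APOB, MTTP ranked only 1215 among the 23998 other probe sets, and by r with MTTP, APOB ranked 46. Array measures moved with both genes. The array median correlated with APOB at r = 0.82 and with MTTP at r = 0.57 (adjusted p = 8e-05 for each, over 40 relations), and the difference between the 3 prime and 5 prime GAPDH controls, a sign of RNA integrity, at r = 0.54 and r = 0.29. The same difference for the actin controls was not clearly related to APOB (r = -0.051, adjusted p = 0.708) or MTTP (r = -0.092, adjusted p = 0.455). No partial r given the GAPDH difference is reported here for any pair. Given the array median the partial r of the pair was 0.63, and with the first 5 principal components of all probe sets as covariates it was 0.31 (adjusted p = 0.0011).

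APOB correlated with many transcripts: 22% of the other 23998 probe sets correlated with it beyond 0.5 in absolute r, against 14.01% for MTTP, 7.47% for APOM, 2.95% for APOH and at most 0.417% for the other 6 genes. The named genes most like APOB were ALCAM, a cell adhesion molecule (r = 0.93, given the array median 0.80), EIF4G2, a translation initiation factor (0.92 and 0.77), and CALD1, an actin-binding protein (0.92 and 0.79). PSENEN, a subunit of gamma-secretase, ran most against it among named genes (r = -0.81, given the array median -0.56). Those most like MTTP were DDX1, an RNA helicase (r = 0.82, given the array median 0.72), PROS1, the anticoagulant protein S (0.82 and 0.72), and CDC5L, a splicing factor (0.81 and 0.71). These partners were picked for their r, so the values are a description with no test.

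The accessory genes of particle assembly went both ways. Of 36 genes of lipoprotein assembly and remodelling, 22 were measured; 7 correlated positively and 9 negatively with APOB after adjustment over 680 relations between members and list genes, and 5 and 5 with MTTP. The weakest relation that passed had an absolute r of 0.191. Of all other probe sets, 33.3% had a positive r with APOB at or beyond that size and 27.2% a negative one, and for MTTP these shares were 30.2% and 25.2%. Counts of this order are thus common to the whole array, and nothing particular to the list is read from them. SEC23A, an inner coat protein of COPII vesicles, went with APOB (r = 0.79, rho = 0.77, r without 2 pigs 0.79) and with MTTP (r = 0.78, rho = 0.77, r without 2 pigs 0.78), each with an adjusted p of 9.31e-05 for r. By r with APOB it ranked 945 among all other probe sets, and by r with MTTP 17. Given the array median, its r was 0.58 with APOB and 0.66 with MTTP. CANX, the lectin chaperone calnexin, followed APOB at r = 0.78 and MTTP at r = 0.59 (given the array median 0.56 and 0.35). SAR1B, the COPII GTPase needed for chylomicron export in humans, correlated with MTTP at r = 0.54 (given the array median 0.50) and with APOB at r = 0.30 (0.16). SURF4, a cargo receptor for lipoproteins in mouse liver, ran the other way, with r = -0.43 for APOB and r = -0.39 for MTTP, but given the array median only -0.076 and -0.16. Other COPII genes ran against APOB too. SAR1A had r = -0.36 with APOB (given the array median -0.20) and r = -0.044 with MTTP, which did not pass. SEC24C had r = -0.27 with APOB and r = -0.25 with MTTP (given the array median 0.027 and -0.070).

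Among 17 measured regulators of 27 listed, 8 correlated positively and 3 negatively with APOB, and 7 and 4 with MTTP, beside the same shares of all other probe sets, 33.3% and 27.2% for APOB and 30.2% and 25.2% for MTTP. The orphan receptor NR5A2 (LRH-1) had r = 0.81 with APOB and r = 0.67 with MTTP, and the coactivator PPARGC1A had 0.67 and 0.64. By r with APOB they ranked 790 and 2264 among all other probe sets, and by r with MTTP 595 and 979. Their partial values given the array median were 0.62 and 0.47 for NR5A2, and 0.39 and 0.45 for PPARGC1A. HNF4A, a nuclear receptor known to act on the promoters of both genes, had r = 0.15 with APOB (adjusted p = 0.137) and r = 0.088 with MTTP (adjusted p = 0.432). Its correlations with the other 8 members did not pass either, the highest r being 0.107 with APOA4 (adjusted p = 0.314).

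**Figure D4:**
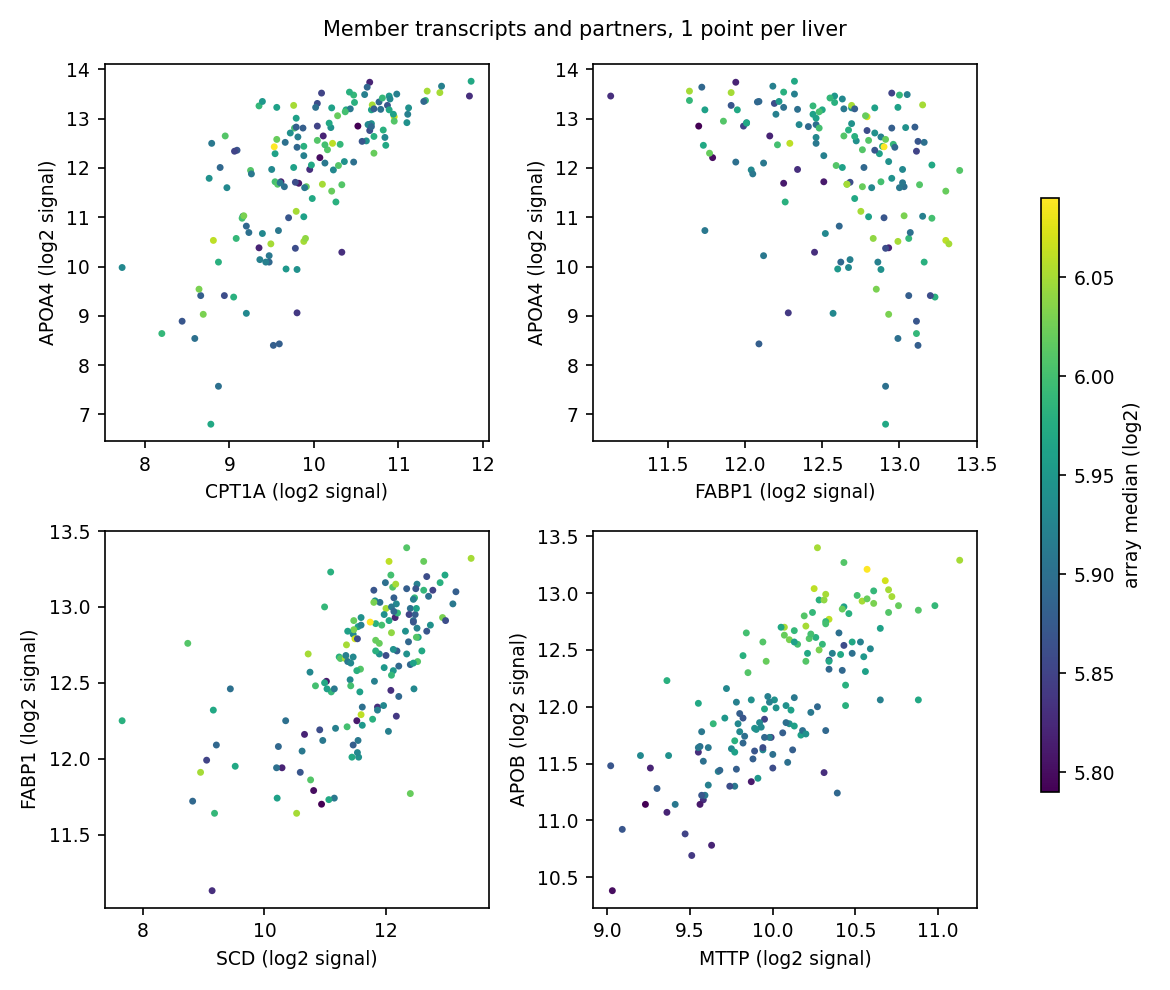
Levels of 4 pairs of transcripts in every liver (log2 signal on both axes, 1 point per pig, colour by array median). APOA4 rises with CPT1A and falls with FABP1, FABP1 rises with SCD, and only in the panel of APOB against MTTP do the colours follow the points, in step with the r of 0.82 between APOB and the array median.

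APOM ran against the assembly pair. It correlated negatively with APOB (r = -0.63, rho = -0.62, r without 2 pigs -0.62) and with MTTP (r = -0.58, rho = -0.59, r without 2 pigs -0.59), each with a permutation p of 1e-05 and an adjusted p of 6.43e-05 for r and 7.5e-05 for rho. The sign was negative in 9 of 10 title number blocks for each pair. APOM itself fell with the array median (r = -0.50) and with the GAPDH difference (r = -0.38). It was not clearly related to the actin difference (r = 0.026, adjusted p = 0.844). The partial values of APOM with APOB and MTTP given the array median were -0.44 and -0.42. With 5 principal components as covariates both calls were lost, at partial r = -0.092 (adjusted p = 0.470) for APOB and -0.19 (adjusted p = 0.0613) for MTTP.

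The named genes most like APOM were NDUFS7, a subunit of respiratory complex I (r = 0.68, given the array median 0.58), HSD17B8, a mitochondrial short-chain dehydrogenase (0.67 and 0.53), and COX5B, a subunit of cytochrome oxidase (0.67 and 0.54). HSPD1, the mitochondrial chaperonin, ran most against it (r = -0.67, given the array median -0.53). A weaker positive relation joined APOM with APOA1 (r = 0.33, rho = 0.35, r without 2 pigs 0.28; adjusted p = 0.000281 for r and 0.000225 for rho), and this was 0.38 given the array median. APOH went with MTTP (r = 0.41, rho = 0.34, r without 2 pigs 0.37; adjusted p = 6.43e-05 and 0.000225), with a partial r of 0.28 given the array median and 0.027 (adjusted p = 0.817) with 5 principal components. The closest named partner of APOH was F9, coagulation factor IX (r = 0.79, given the array median 0.80). Next came HADHB, a subunit of the mitochondrial trifunctional protein (0.77 and 0.77), and PPP1CC, a phosphatase catalytic subunit (0.77 and 0.75). TNPO2, a nuclear import receptor, ran most against APOH (r = -0.65). For these genes rho was smaller in size than r, at 0.74 for F9, 0.66 for HADHB, 0.61 for PPP1CC and -0.55 for TNPO2. Without 2 extreme pigs r was 0.75, 0.72, 0.71 and -0.62.

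APOC3 and APOE were the tightest pair. Their r was 0.81 (rho = 0.80, r without 2 pigs 0.80; permutation p = 1e-05 for each; adjusted p = 6.43e-05 and 7.5e-05), each ranked first among the 23998 other probe sets for its partner, and r was positive in 10 of 10 title number blocks, the lowest block being at 0.74. Given the array median the partial r was 0.80, and with 5 principal components 0.78. With the mean of both APOE probe sets in place of the brighter one, r dropped to 0.30 (adjusted p = 0.0014). That mean mostly follows the dimmer probe set, whose SD was 0.32 against 0.080 for the brighter one. The 2 probe sets had an r of only 0.097 with each other, and the cause of the drop was not tested. The strong relation was seen with the brighter APOE probe set, whose whole range was 0.51 log2 units. The correlation of APOC3 with the dimmer probe set by itself is not given here.

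Transcripts of abundant plasma proteins were the next partners of both. ALB, serum albumin, had r = 0.74 with APOC3 and 0.66 with APOE, and C3, the central complement component, 0.54 and 0.60. The third named partner was LOC396685 for APOC3 (r = 0.57) and HP, haptoglobin, for APOE (r = 0.55). All of these partners lay at the top of the scale, with medians from 13.61 (LOC396685) to 13.93 (ALB). Their SDs were narrow too, from 0.054 (C3) to 0.0805 (ALB). SELENOP, the selenium transport protein, ran most against APOC3 (r = -0.55), and MC4R, a melanocortin receptor, most against APOE (r = -0.58). The mean of the 28 brightest probe sets other than members was not clearly related to either gene, with r = -0.099 for APOC3 (permutation p = 0.230, adjusted p = 0.329) and r = -0.077 for APOE (permutation p = 0.349, adjusted p = 0.437); rho was -0.017 and -0.013. With that mean as covariate the partial r of the pair was 0.81. ALB, C3, HP and LOC396685 are themselves among those 28 probe sets. The mean therefore cannot separate the pair from an effect shared at the top of the scale, which was not tested. Among the other members, APOH (r = 0.46, adjusted p = 0.0001), MTTP (0.28, 0.00285), APOB (0.26, 0.00447) and FABP1 (0.22, 0.0151) passed with that mean, and the rest did not. Of the 17 measured regulators, 3 passed with a positive r and 3 with a negative one for APOC3, and 4 and 2 for APOE. Of all other probe sets, 6.9% and 10.6% had such an r at or beyond 0.191 for APOC3, and 5.02% and 11.6% for APOE. SREBF1, a master factor of lipogenesis, ran against both (r = -0.38 and -0.37, adjusted p = 9.31e-05 and 0.000164). SREBF2 went the other way (r = 0.30 and 0.29, adjusted p = 0.00113 and 0.00228). FASN and SCD, enzymes of lipogenesis, did not pass with either gene.

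In the gene table of Sscrofa11.1, the pig assembly, APOA4, APOC3 and APOA1 lie next to each other in that order. The neighbours did not vary together: r was 0.109 for APOA1 with APOA4 (adjusted p = 0.330), 0.031 for APOA1 with APOC3 (adjusted p = 0.801) and 0.013 for APOA4 with APOC3 (adjusted p = 0.911). With 5 principal components as covariates APOA1 and APOA4 did pass, at a partial r of 0.22 (adjusted p = 0.0305). Over the 10 blocks of title numbers, r between APOA1 and APOA4 was positive in 6, between APOA1 and APOC3 in 6 and between APOA4 and APOC3 in 4.

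The neighbours had different partners. APOA1 was most like cytosolic ribosomal protein genes, with r = 0.68 for RPLP0, 0.64 for RPSA and 0.64 for RPS19, each positive in 10 of 10 blocks. Of the 22 measured assembly genes, 5 passed with a positive r for APOA1 and 3 with a negative one. Of the 23998 other probe sets, 3248 had a positive r with APOA1 at or beyond 0.191 and 1932 a negative one. Highest in that list was APOC2, the activator of lipoprotein lipase (r = 0.50, rho = 0.50, adjusted p = 9.31e-05). APOF (r = 0.40) came next, then LCAT, the enzyme that esterifies cholesterol on high density lipoprotein (r = 0.31, rho = 0.26, adjusted p = 0.000561). The negative ones were HSPA5 (r = -0.25), CANX (r = -0.24) and SAR1B (r = -0.21). In the other lists, DBI (r = 0.358), SCARB1 (r = 0.319) and NR1H3 (r = 0.314) stood above LCAT. MMP20, an enamel protease with a median of 4.74 near the floor, had the lowest r with APOA1 at -0.55.

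The partners of APOA4 were others again. Its closest named partners were MFSD2A, a lysophospholipid transporter (r = 0.72, rho = 0.74), CPT1A, which brings long-chain fatty acids into mitochondria (r = 0.71, rho = 0.73), and SLC25A30, a mitochondrial carrier (r = 0.69, rho = 0.74), each positive in 10 of 10 blocks. At the other end stood GPAM, the mitochondrial enzyme of the first step of glycerolipid synthesis, with r = -0.58 (rho = -0.63) and a negative sign in 10 of 10 blocks. APOA4 was not clearly related to the array median (r = 0.054, adjusted p = 0.705), and given it the r with CPT1A was 0.71 and with GPAM -0.59.

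Of 10 PPARA target and fasting genes 5 were measured, and 3 of the 5 passed with a positive r for APOA4 and 0 with a negative one. Of all other probe sets, 7.85% had a positive r with APOA4 at or beyond 0.191 and 4.94% a negative one. The 3 genes were CPT1A, PLIN2, a coat protein of lipid droplets (r = 0.56, rho = 0.70), and ANGPTL4, an inhibitor of lipoprotein lipase (r = 0.31, rho = 0.31), with adjusted p values for r of 9.31e-05, 9.31e-05 and 0.000829. The other 2 had r = 0.15 (PDK4, adjusted p = 0.139) and r = 0.061 (ACADM, adjusted p = 0.606). PPARA itself, with a median of 5.23 not far above the floor, had r = 0.41 (rho = 0.44, adjusted p = 9.31e-05). Among the 11 measured genes of triglyceride supply, 3 passed with a positive r and 3 with a negative one, beside the same 7.85% and 4.94%. The positive ones were PLIN2, PNPLA2 (r = 0.41, rho = 0.31, adjusted p = 9.31e-05) and LPIN2 (r = 0.30, rho = 0.34, adjusted p = 0.0010). The negative ones were GPAM, SCD, the stearoyl-CoA desaturase (r = -0.40, rho = -0.43), and FASN, fatty acid synthase (r = -0.37, rho = -0.46), with adjusted p values for r of 9.31e-05, 0.000164 and 0.000224. AGPAT2, DGAT1 and DGAT2 did not pass (r = 0.042, 0.0015 and -0.063).

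FABP1 had several of the same partners with the opposite sign. It was most like ALDH1A1, a retinaldehyde dehydrogenase (r = 0.66, rho = 0.61), SCD (r = 0.66, rho = 0.68) and ARL3, a small GTPase (r = 0.59, rho = 0.53), and PLIN2 had the lowest r of all 23998 probe sets with it (r = -0.65, rho = -0.64). Of all other probe sets, 11.7% had a positive r with FABP1 at or beyond 0.191 and 10.6% a negative one. Among the triglyceride supply genes 4 passed with a positive r (SCD, FASN at r = 0.58, GPAM at r = 0.46 and DGAT2 at r = 0.27) and 2 with a negative one (PLIN2, and PNPLA2, the main triglyceride lipase, at r = -0.32). Of the 5 fasting genes 0 passed with a positive r and 3 with a negative one: PLIN2, CPT1A (r = -0.54, rho = -0.53) and ANGPTL4 (r = -0.25, rho = -0.24). The array median had an r of 0.21 with FABP1 (adjusted p = 0.0359), and given it the r with SCD was 0.67 and with PLIN2 -0.64.

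APOA4 and FABP1 themselves ran against each other, with r = -0.38 (rho = -0.44, r without 2 pigs -0.38; adjusted p = 6.43e-05 and 7.5e-05) and a negative sign in 9 of 10 blocks. Given the array median this was -0.41. With 5 principal components as covariates it was -0.064 (adjusted p = 0.618).

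APOA2 went with FABP1 (r = 0.52, rho = 0.55, r without 2 pigs 0.50; adjusted p = 6.43e-05 and 7.5e-05) in 10 of 10 blocks, and FABP1 ranked 6 among all probe sets by r with APOA2. Given the array median the value was 0.54 and with 5 principal components 0.44. The named genes outside the set most like APOA2 were FDX1, a mitochondrial electron carrier (r = 0.48), DBP, an output factor of the circadian clock (r = 0.46), and APOC2 (r = 0.45). ARNTL (BMAL1), a core clock activator, had the lowest r of all 23998 probe sets with APOA2 at -0.59 (rho = -0.60), negative in 10 of 10 blocks from -0.37 to -0.81. APOA2 had few wider ties: 0.0333% of probe sets exceeded 0.5 in absolute r with it.

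None of the transcripts passed the test for fat area or drip loss. For fat area, 30 of the 23999 probe sets passed limma's test at an adjusted p under 0.05, which is 0.125%, and 0 of the 11 member probe sets did. For drip loss 0% passed, and 0 of 11 members. At an unadjusted p under 0.05, 1 of the 11 passed for fat area against 7.08% of all probe sets, and 0 of 11 for drip loss against 11% of all. The median slope of the 11 (log2 units per trait SD) was -0.0010 for fat area, beside 0.00025 over all probe sets, and 0.00099 for drip loss, beside 0.0043.

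**Figure D5:**
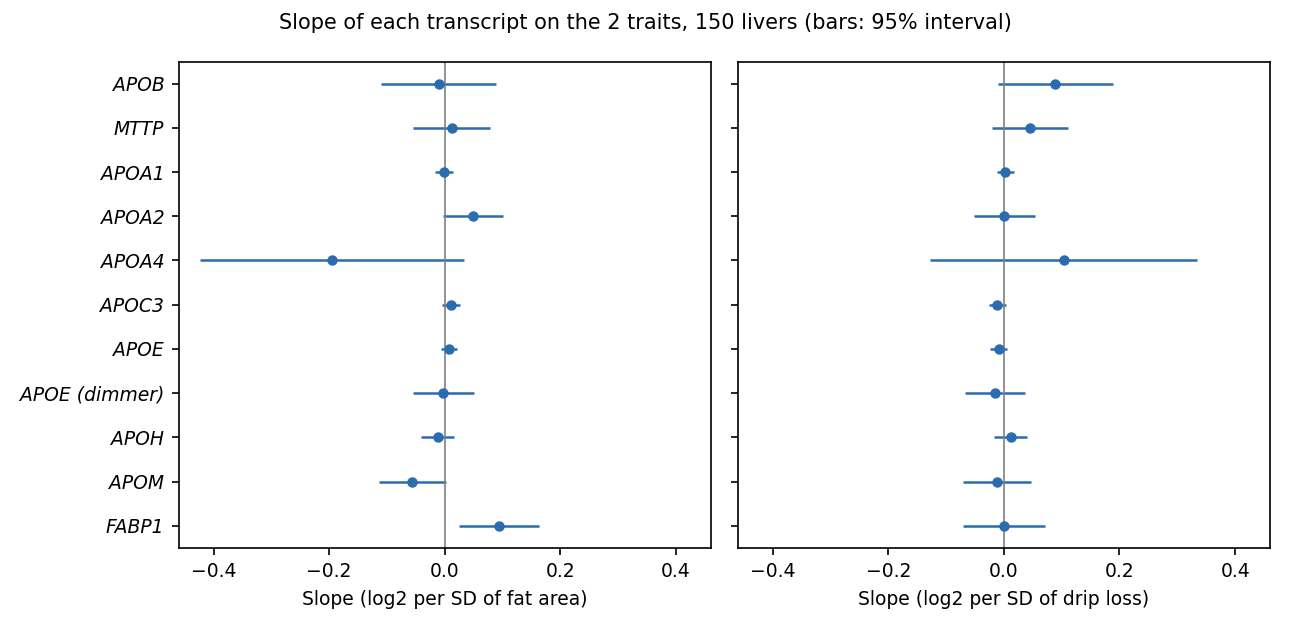
Slope of each of the 11 probe sets (log2 per SD of the trait, 150 livers, bars for the 95% interval) on fat area (left) and drip loss (right). The interval of FABP1 for fat area, 0.025 to 0.16, is the only one clear of 0, and its adjusted p over all probe sets was 0.427.

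FABP1 came nearest to a relation with fat area. Its level averaged 12.79 ± 0.347 in the 30 pigs with the largest fat area (20.2 cm2 on average) and 12.50 ± 0.419 in the 30 with the smallest (11.3 cm2; SD, n = 30 each), and the ranges overlapped, from 11.91 to 13.39 and from 11.73 to 13.21. The slope over all 150 pigs was 0.094 per SD of fat area (SE 0.035, 95% interval 0.025 to 0.16), with a p of 0.0082 and limma's adjusted p of 0.427. With 5 principal components as covariates the slope was 0.028.

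The intervals of the other 10 slopes on fat area all held 0. APOA4 had a slope of -0.19 (SE 0.12, 95% interval -0.42 to 0.034, limma's adjusted p = 0.781), and averaged 11.62 ± 1.71 in the fattest 30 pigs and 12.29 ± 1.22 in the leanest 30. With 5 principal components as covariates its sign turned, to 0.022. APOM had -0.056 (interval -0.11 to 0.0022) and APOA2 0.048 (interval -0.0032 to 0.10). APOC3 and APOE, with their narrow spread, had slopes of 0.011 (interval -0.0038 to 0.027) and 0.0074 (interval -0.0068 to 0.022). For APOA1 the interval ran from -0.016 to 0.014. APOB had -0.010 (interval -0.11 to 0.090), MTTP 0.012 (interval -0.054 to 0.079) and APOH -0.012 (interval -0.041 to 0.017). The dimmer APOE probe set had -0.0024 (interval -0.055 to 0.050).

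For drip loss the smallest adjusted p in the set was that of APOB, at 0.498. APOB averaged 12.27 ± 0.551 in the 30 pigs with the highest drip loss (8.52% on average) and 12.02 ± 0.573 in the 30 with the lowest (2.58%; SD, n = 30 each), with ranges of 10.78 to 12.95 and 11.14 to 13.27 that overlapped. Its slope was 0.089 per SD of drip loss (SE 0.050, 95% interval -0.0096 to 0.19), with the array median as covariate it was 0.022, and with 5 principal components 0.0043. MTTP had a slope of 0.046 (interval -0.020 to 0.11). APOA4 had 0.10 (interval -0.13 to 0.33), APOC3 -0.011 (interval -0.027 to 0.0040), APOE -0.0091 (interval -0.023 to 0.0050), APOH 0.011 (interval -0.018 to 0.040) and APOM -0.012 (interval -0.071 to 0.046). The slopes of APOA1, APOA2 and FABP1 were 0.0027, 0.00099 and 0.00026, and the dimmer APOE probe set had -0.016.

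The wider pathway also held no gene that passed for either trait. In the 6 lists around lipoprotein assembly, receptors, fatty acid binding, triglyceride supply, regulators and fasting, 0 of 22, 0 of 5, 0 of 10, 0 of 11, 0 of 17 and 0 of 5 measured genes passed for fat area, and the same counts held for drip loss. PLIN2 came nearest, with a slope of -0.32 per SD of fat area (SE 0.081, limma's adjusted p = 0.0637). CPT1A had -0.20 (SE 0.060, adjusted p = 0.214), AGPAT2, an acyltransferase of triglyceride synthesis, 0.078 (SE 0.025, adjusted p = 0.256) and SEC24D, a cargo adaptor of COPII vesicles, -0.13 (SE 0.043, adjusted p = 0.283). For drip loss the smallest adjusted p values were 0.317 for FOXA2, a liver transcription factor (slope 0.11, SE 0.037), and 0.33 for SURF4 (slope -0.054, SE 0.019).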

How the data were processed

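Log2 signals of every probe set on 150 arrays were deposited by the authors; that they are log2 was read from the values. The submitters' processing notes name GCOS 1.1.1, the scanner software; how probes were summarised and normalized was not given in the sources used here. Of 24123 probe sets, 124 controls were left out. Gene symbols are those of the array annotation, checked by Entrez ID against a pig gene table (9961 of 10069 probe sets with 1 symbol matched), and that table, of the assembly Sscrofa11.1, served only for names and for which genes are neighbours. The deposited files and the labels name no build, so positions are left out.

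Slopes of all 23999 probe sets per SD of each trait were fitted with limma 3.58.1 (lmFit, eBayes with trend) under R 4.3.3, with no covariate, two-sided, with Benjamini-Hochberg adjustment over all probe sets. Correlations over the pigs (Python 3.11.15, numpy 2.4.6) had two-sided tests of 100000 permutations, adjusted over their family, and each was run again leaving out the 2 pigs most extreme on the x measure. Partial correlations used residuals on the covariate. Blocks of 100 title numbers with at least 6 pigs stood in for a possible order, since the meaning of the number is not given. Arrays more than 3 median absolute deviations below the median of the arrays' median correlations counted as standing apart. Both scripts were tested on simulated data. Pigs are separate samples, but shared litters or slaughter days are unknown.

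The members and the gene lists were chosen with earlier results of these data known. The rule for naming took every member, per member the 3 named genes of highest and the 1 of lowest r, and up to 4 genes of smallest p per list and trait, of which those nearest to the threshold are given; list genes named for their correlation with a member were chosen after their values were seen. Alternatives were quantile normalization, left-out arrays or pigs, a filter on dim probe sets, covariates, normal scores, no trend and another threshold.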

Additional observations from a re-analysis of the deposited data

How the results depend on the processing

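The counts of 0 member probe sets called held under every alternative for both traits, as did the 0 called over all probe sets for drip loss. These alternatives held the actin difference as a covariate of the slopes, but not the GAPDH difference. For fat area the share of all probe sets called, 0.125%, was 0.275% at an adjusted p under 0.1, 0.192% without the arrays that stand apart, 0.246% with the array median as covariate, 0.00417% (1 probe set) with the Y-linked EIF1AY, 0.425% with 5 principal components and 0.0458% with normal scores. The median r over the pairs stayed between -0.0321 and 0.0631. Of the 17 pairs that passed, 5 passed under all 11 alternatives, 5 were lost only with 5 principal components and 7 were lost under another one. With 5 principal components 13 pairs were positive and 0 negative. The covariate of the brightest other probe sets was chosen after seeing the data; it left 15 pairs past the test. No cause of these changes was tested. Depth does not apply to arrays. The narrow signal range at the top of the scale limits APOA1, APOC3 and APOE, and also APOH, whose quartiles differed 1.09-fold around a median of 13.44.

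Signs turned for some slopes that were not called. For fat area, the dimmer APOE probe set had 0.0030 without the arrays that stand apart and 0.0020 without 2 extreme pigs, APOB 0.0096 without 2 extreme pigs, 0.0077 with a spline of the title number and 0.0072 with title number blocks, APOA1 0.00088 with those blocks, MTTP -0.036 with EIF1AY, and APOA4 0.022 with 5 principal components. For drip loss, quantile normalization gave -1.21e-05 for APOH, -0.014 for APOA2, -0.019 for FABP1 and -0.0024 for APOA1. FABP1 had -0.0036 without the arrays that stand apart, -0.012 without 2 extreme pigs, where APOA2 had -0.014, then -0.012 with the array median, -0.0035 with EIF1AY and -0.017 with 5 principal components. APOM had 0.0030 with the spline, 0.0047 with the blocks, 0.012 with the array median and 0.015 with 5 principal components. APOA1 had -0.0017 with the spline and -0.0043 with the blocks. APOA2 had -0.0025 with the blocks, -0.0014 with EIF1AY and -0.0053 with 5 principal components, which gave -0.00055 for APOH and -0.0019 for MTTP. The dimmer APOE probe set had 0.0044 with the actin difference. Among pairs, APOA1 with APOC3 had r = -0.16 after quantile normalization, APOA4 with APOC3 -0.040 within title number blocks, and APOH with APOM 0.088 with 5 principal components, against -0.23 without them.

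No paired analysis was possible because all 150 pigs form a single group.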

Other observations

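For 5 of the 10 members, APOA2, APOA4, APOB, APOH and APOM, the closest probe set of all carried no gene symbol, and those of APOA4 and APOA2 are given here. Probe set Ssc.28855.2.S1_at, with a median of 8.19, followed APOA4 at r = 0.87 and rho = 0.93, and r was positive in 10 of 10 blocks of title numbers, from 0.81 to 0.98. Probe set Ssc.30717.1.S1_at, with a median of 7.22, followed APOA2 at r = 0.76 and rho = 0.74, again positive in 10 of 10 blocks. Whether either is a further transcript of the same gene was not tested, because the sequences of the probes are not used here.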
